A study of Homo sapiens with 12 samples.

Results

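The 44 genes described here carry out or time mitosis: the kinases and cyclins of entry, the spindle checkpoint, the anaphase machinery, the kinetochore, the chromosomal passenger complex, mitotic kinesins, spindle proteins, the cytokinetic ring and chromosome proteins. They were taken by gene symbol from a table of 60234 genes, each symbol met 1 row, and all 44 passed the filter on low counts that left 22668 genes for testing. The cells are MDA-MB-231, a long-established line from a human breast cancer of the triple-negative class. Fast cells had been captured by the trajectory along which they moved, and parental cells are the same line without capture. No other treatment or genetic change is named for either population, and no captured cells of another speed are analysed here, so the capture itself and the speed of the cells cannot be told apart. Total RNA of cultured cells was sequenced in 12 libraries: 3 of fast batch 2, 3 of fast batch 1, 3 of parental batch 2 and 3 of parental batch 1. The series calls the libraries technical replicates, and it is not clear whether a batch is a biological replicate. The p-values below measure library-to-library spread and may reflect technical error alone. Those of the effect over both batches also take in the spread of that effect between the batches.

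Mitosis is driven by CDK1 bound to A- and B-type cyclins. Its onset is timed by phosphatases of the CDC25 family and by the kinases PLK1 and AURKA, and its end by the anaphase-promoting complex, which marks cyclin B and securin for destruction once the spindle checkpoint is satisfied. Most of these genes are silent in G1 and are switched on together in G2 by FOXM1 and B-MYB, which act through promoter elements known as the CHR, and by NF-Y, which binds CCAAT boxes. In dividing cells their RNA therefore tends to rise and fall as a block, and MKI67 and TOP2A are read in breast tumours as marks of proliferation.

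The libraries held 53267145 to 75944907 counts. Levels are CPM, each library's counts scaled to a common total by TMM, and fold changes are fast over parental. Of the line's markers, VIM, an intermediate filament of mesenchymal cells, had 6912 CPM in fast cells and 5050 CPM in parental cells. The estrogen receptor gene ESR1 stood at 0.139 CPM in each and the epithelial cadherin CDH1 at 0.0210 and 0.00725 CPM. ERBB2 had 59.0 and 62.4 CPM and PGR at 2.05 and 0.477 CPM. Markers of leukocytes summed to 1.15 to 1.61 CPM in fast and 1.48 to 2.56 CPM in parental libraries, with CD3D, CD2, MS4A1 and FCGR3A among those at 0 counts, and fibroblast markers to 9.13 to 11.8 CPM and 14.2 to 16.6 CPM, with DCN and LUM at 0. Endothelial markers summed to 106 to 114 CPM in fast and 63.8 to 78.1 CPM in parental libraries, most of it ROBO4 at 95.9 and 55.2 CPM, while the defining cadherin CDH5 stood at 0.0442 and 0.0466 CPM. The part of these markers in the results below was not tested. In bulk RNA, fewer cells in mitosis and less RNA per mitotic cell cannot be told apart.

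The promoters show what the members share outside these data. RefSeq promoter windows on GRCh38.p14, from 250 bases before to 50 after the annotated start, were matched for 37 of the 44 by symbol. For genes with more than 1 window, among them 6 members, only the first listed was searched. The CHR element, searched as TTTGAA or TTCGAA on both strands, was found in 28 of 37 member windows (75.7%) and in 16.6% of the 27305 genes with a window. CCAAT, on both strands, was in 29 of 37 (78.4%) against 35.7%, and both elements were in 24 of 37 (64.9%) against 6.58%. Windows with at least 2 CCAAT were 48.6% of the members' and 11.3% of all. The 4 windows below are shown because their genes span the range of change described next: CDC20 was lower in fast cells, CCNB2 and PLK1 did not pass the test and NDC80 was higher. All 4 lie on the plus strand, at chr1:43358731-43359030, chr15:59104896-59105195, chr16:23678639-23678938 and chr18:2571307-2571606. Capitals mark the CHR letters and CCAAT, or their reverse complements.
CDC20: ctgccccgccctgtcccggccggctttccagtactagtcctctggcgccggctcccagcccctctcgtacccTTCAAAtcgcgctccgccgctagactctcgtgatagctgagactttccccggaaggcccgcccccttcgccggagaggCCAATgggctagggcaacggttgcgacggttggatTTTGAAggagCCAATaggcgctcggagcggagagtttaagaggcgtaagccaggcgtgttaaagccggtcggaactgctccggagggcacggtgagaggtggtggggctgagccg
CCNB2: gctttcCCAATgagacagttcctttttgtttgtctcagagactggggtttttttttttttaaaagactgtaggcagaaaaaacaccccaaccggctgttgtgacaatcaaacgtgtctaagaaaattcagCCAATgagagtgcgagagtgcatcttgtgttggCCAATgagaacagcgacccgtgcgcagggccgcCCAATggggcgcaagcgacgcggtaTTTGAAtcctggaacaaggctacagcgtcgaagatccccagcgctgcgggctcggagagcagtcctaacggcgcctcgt
PLK1: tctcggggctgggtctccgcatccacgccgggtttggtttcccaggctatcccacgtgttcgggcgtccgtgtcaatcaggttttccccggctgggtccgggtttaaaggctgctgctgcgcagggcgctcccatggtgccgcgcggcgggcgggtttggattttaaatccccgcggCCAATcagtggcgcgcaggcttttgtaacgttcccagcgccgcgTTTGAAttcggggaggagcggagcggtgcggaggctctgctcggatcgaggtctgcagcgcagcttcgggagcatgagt
NDC80: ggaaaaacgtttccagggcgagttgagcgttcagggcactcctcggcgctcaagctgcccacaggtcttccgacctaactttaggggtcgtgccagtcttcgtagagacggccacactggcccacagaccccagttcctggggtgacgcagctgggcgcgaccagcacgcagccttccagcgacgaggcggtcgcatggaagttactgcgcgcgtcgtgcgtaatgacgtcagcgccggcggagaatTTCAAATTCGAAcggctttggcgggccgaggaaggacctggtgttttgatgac
The windows of CDC20, CCNB2 and PLK1 hold both elements, and that of NDC80 holds 2 adjoining CHR matches and no CCAAT. Of the 28 members with a CHR match, 14 were higher in fast cells, 9 lower and 5 not called. Of the 9 without a match to TTTGAA or TTCGAA in this window, 1 was higher, 6 were lower and 2 were not called. No other spelling of the element was searched, so these 9 cannot be read as genes without it. Over all genes tested, 31.9% were higher and 31.5% lower. Members with the same elements thus changed in both directions, and no test was made of these counts. A match describes the letters of the window and is not a binding site.

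The summed level of the 44 genes was 9790 to 10494 CPM in fast libraries and 9659 to 10086 CPM in parental libraries, and over both batches the ranges overlapped. In batch 2 all 3 fast libraries lay above the parental ones, with means of 10303 ± 213 CPM in fast cells and 9730 ± 67.3 CPM in parental cells (SD, n = 3 libraries each). In batch 1 they overlapped, with means of 9949 ± 151 CPM in fast cells and 9840 ± 213 CPM in parental cells. No test was made of the sums, in which abundant genes such as MKI67 weigh most. Within the set, 18 genes were higher in fast cells, 15 were lower and 11 did not pass in edgeR's quasi-likelihood test at an adjusted p of 0.05, with a median log2 fold change of 0.00. Over all 22668 genes tested, 63.4% were called, 31.9% higher and 31.5% lower, with a median log2 fold change of 0.005. The changes were small: by at least 1.5-fold, 1 member was higher and 6 were lower, against 9.93% and 13.2% of all genes, and 0 reached 2-fold against 10.9% of all genes. The libraries of the populations did not overlap for 26 members, 11 with all fast libraries above and 15 with all below, against 18.8% and 19.6% of all genes (38.4% together).

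**Figure D1:**
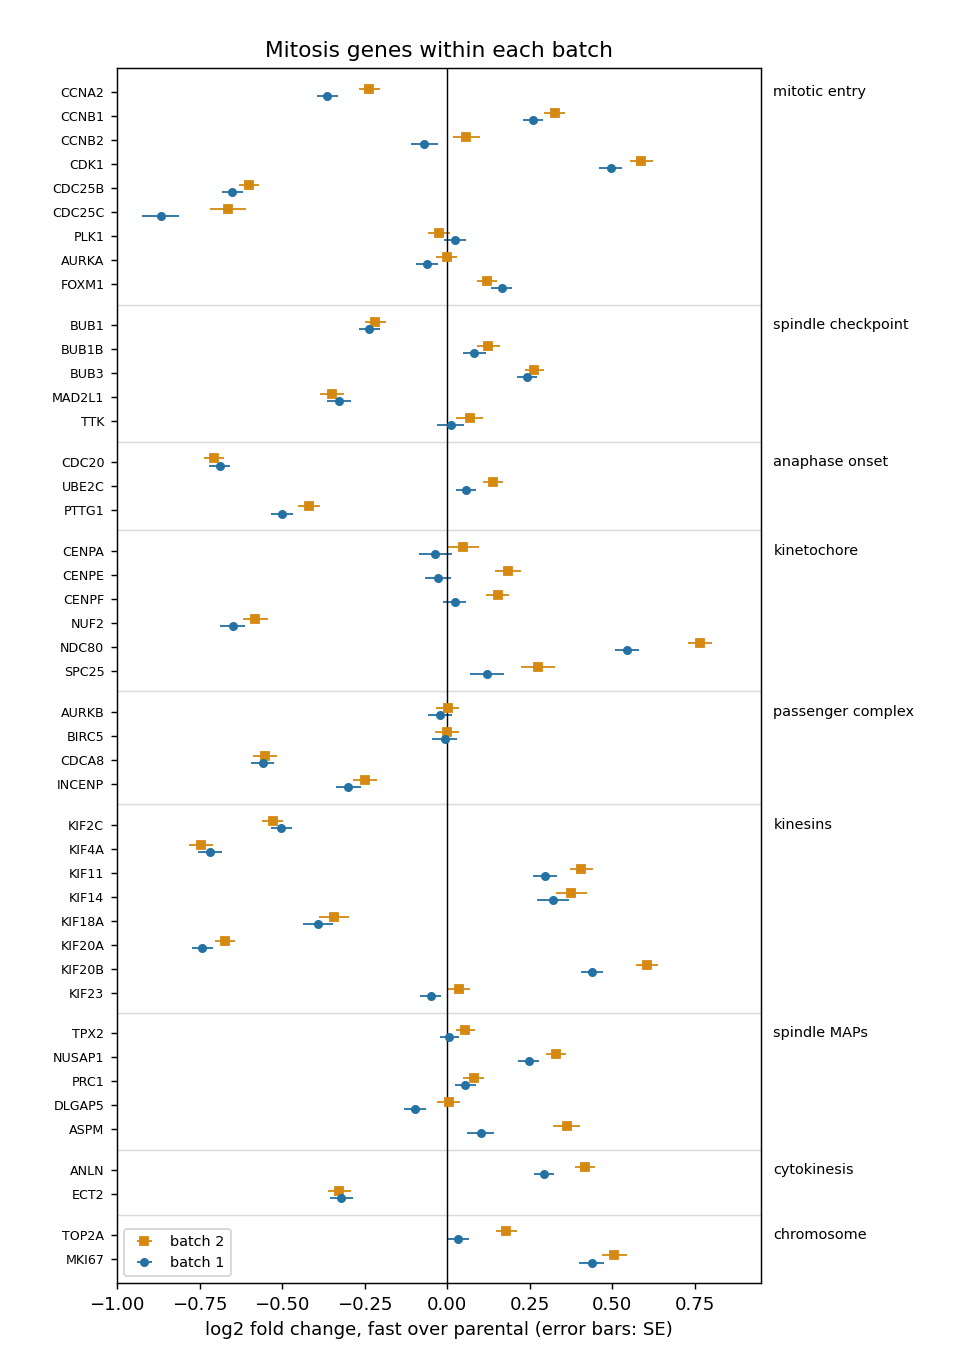
Log2 fold change of each of the 44 mitosis genes, fast over parental, within batch 2 (squares) and batch 1 (circles), with SE bars, grouped by role. Genes to the left of 0 were lower in fast cells; members of 1 role lie on both sides, from CDC25C at the far left to NDC80 at the far right.

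Among the regulators of entry, the kinase rose and its activating phosphatases fell. CDK1, the kinase that drives mitosis, had 248 to 272 CPM in fast libraries (median 265) and 158 to 202 CPM in parental libraries (median 181). All 6 fast libraries lay above all 6 parental ones, and the log2 fold change was 0.54 ± 0.03 SE (edgeR adjusted p = 6.1e-18). CDC25C, which removes the inhibitory phosphates from CDK1, had 19.0 to 23.1 CPM in fast libraries (median 20.6) and 33.8 to 38.6 CPM in parental libraries (median 34.9). It had the largest fall of the 44, with fast libraries all below (-0.76 ± 0.04 SE, edgeR adjusted p = 8.26e-17). CDC25B, the related phosphatase that acts early at the centrosome, had 129 to 136 CPM in fast and 203 to 208 CPM in parental libraries, again with no overlap (-0.63 ± 0.02 SE).

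The cyclins did not move together. CCNB1, cyclin B1 and the main partner of CDK1, had 277 to 318 CPM in fast libraries (median 298) and 232 to 257 CPM in parental libraries (median 243), without overlap, and rose by 0.29 ± 0.02 SE in log2 (edgeR adjusted p = 1.39e-12). CCNA2, cyclin A2, which acts from S phase to early mitosis, had 162 to 175 CPM in fast libraries (median 168) and 195 to 222 CPM in parental libraries (median 205), and fell by 0.30 ± 0.03 SE. CCNB2, cyclin B2, averaged 72.0 ± 3.91 CPM in fast cells and 72.3 ± 2.28 CPM in parental cells (SD, n = 6 libraries each, edgeR adjusted p = 0.908), and the libraries overlapped. Within a library, the ratio of CDK1 to CCNA2 was 1.47 to 1.66 in fast and 0.799 to 0.911 in parental cells, a value that scaling does not touch.

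The mitotic kinases PLK1 and AURKA did not pass the test, and the transcription factor of the program did. PLK1, the polo kinase needed from entry to cytokinesis, had 152 to 178 CPM in fast libraries (median 169) and 154 to 184 CPM in parental libraries (median 169), with a log2 fold change of 0.00 ± 0.03 SE (edgeR adjusted p = 0.992). AURKA, the centrosomal Aurora kinase, averaged 231 ± 11.9 CPM in fast cells and 236 ± 9.58 CPM in parental cells (SD, n = 6 libraries each, edgeR adjusted p = 0.311). FOXM1, the factor that turns on G2 genes, was slightly higher, with 254 to 269 CPM in fast and 225 to 247 CPM in parental libraries (0.14 ± 0.02 SE, edgeR adjusted p = 3.61e-06), and its libraries did not overlap. Of the 9 entry genes, 3 rose, 3 fell and 3 did not pass, while 31.9% of all genes tested were higher and 31.5% lower.

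**Figure D2:**
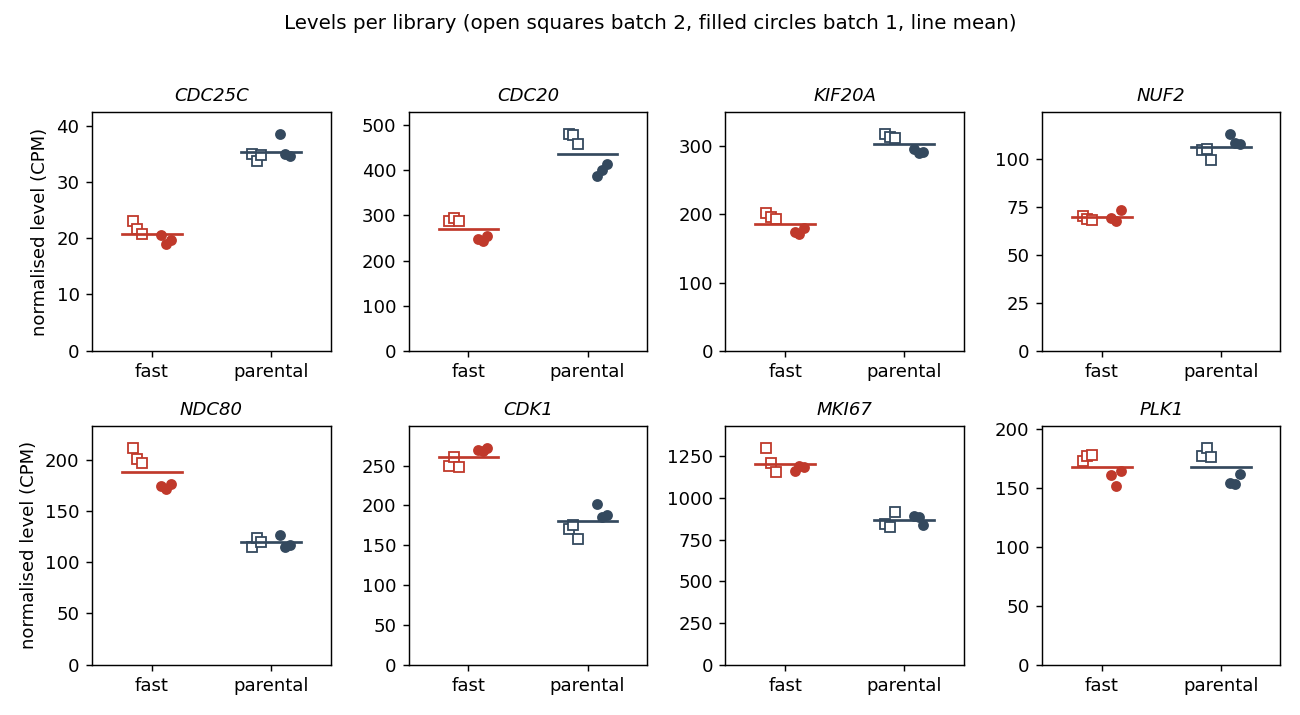
Normalised level in CPM of 8 mitosis genes in each library, fast left and parental right of each panel, with open squares for batch 2, filled circles for batch 1 and a line at the mean of 6 libraries. CDC25C, CDC20, KIF20A and NUF2 lie lower in all fast libraries, NDC80, CDK1 and MKI67 lie higher, and PLK1 overlaps with a mean of 168 CPM in each population.

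The spindle checkpoint, which holds anaphase until every chromosome is attached, was split among its subunits. BUB3, the WD-repeat partner of BUB1 and BUBR1, had 460 to 488 CPM in fast libraries (median 470) and 393 to 401 CPM in parental libraries (median 395) and was higher without overlap (0.25 ± 0.02 SE, edgeR adjusted p = 1.05e-11). MAD2L1, which encodes MAD2, the inhibitor of CDC20, had 96.6 to 104 CPM in fast libraries (median 102) and 118 to 134 CPM in parental libraries (median 129) and was lower without overlap (-0.34 ± 0.03 SE). The checkpoint kinase BUB1 was also lower, at 173 ± 3.9 CPM in fast cells and 203 ± 6.52 CPM in parental cells (SD, n = 6 libraries each, -0.23 ± 0.03 SE). BUB1B, which encodes BUBR1, was higher by 0.10 ± 0.03 SE (edgeR adjusted p = 0.00107) with overlapping libraries. Summing the 3 libraries of a population and batch ended that call (adjusted p = 0.0544, within a range of 0.000402 to 0.0544 over the alternatives). TTK, the kinase MPS1, averaged 67.8 and 66.0 CPM in fast and parental cells and did not pass (edgeR adjusted p = 0.276).

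At anaphase onset the activator and the substrate fell together. CDC20, the activator of the anaphase-promoting complex and the target of the checkpoint, had 243 to 293 CPM in fast libraries (median 270) and 387 to 481 CPM in parental libraries (median 436). The libraries did not overlap, and both batches gave the fall alike, at -0.71 in batch 2 and -0.69 in batch 1 (overall -0.70 ± 0.02 SE, edgeR adjusted p = 6.74e-23). PTTG1, or securin, which holds separase inactive until the complex destroys it, had 132 to 161 CPM in fast libraries (median 144) and 190 to 213 CPM in parental libraries (median 199) and fell by 0.46 ± 0.03 SE. UBE2C, the ubiquitin-conjugating enzyme of the complex, was marginally higher, at 244 ± 6.09 CPM in fast cells and 227 ± 5.5 CPM in parental cells (SD, n = 6 libraries each, 0.10 ± 0.03 SE, edgeR adjusted p = 0.000934). Its call was lost on the sums (edgeR adjusted p = 0.0695, range over the alternatives 0.000109 to 0.0894). The highest value is from centring on chromosomal neighbours, described below, where UBE2C was lower without a call (-0.05). The ratio of CDC20 to CCNB1 in a library was 0.863 to 0.943 in fast and 1.60 to 1.94 in parental cells.

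The kinetochore held the largest rise of the set and 1 of its largest falls, in subunits of 1 complex. NDC80 (HEC1), which binds microtubules, had 171 to 211 CPM in fast libraries (median 186) and 115 to 127 CPM in parental libraries (median 118). Its libraries did not overlap, and the log2 fold change was 0.66 ± 0.04 SE (edgeR adjusted p = 1.95e-14). NUF2, its coiled-coil partner in the same dimer, had 67.4 to 73.2 CPM in fast libraries (median 68.8) and 99.3 to 113 CPM in parental libraries (median 106), lower without overlap (-0.61 ± 0.03 SE, edgeR adjusted p = 2.84e-19). The ratio of NDC80 to NUF2 within a library was 2.41 to 3.02 in fast and 1.06 to 1.20 in parental cells. SPC25, of the dimer that links NDC80 and NUF2 to the chromosome, rose by 0.20 ± 0.04 SE, at 35.5 ± 1.7 CPM in fast cells and 30.9 ± 1.43 CPM in parental cells (SD, n = 6 libraries each, edgeR adjusted p = 5.24e-05), with overlap. Per kilobase of annotated exon, the levels of NDC80, NUF2 and SPC25 were 52.3, 20.6 and 19.3 CPM in fast and 33.1, 31.6 and 16.8 CPM in parental cells.

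The centromere and corona members changed little. CENPA, the histone variant that marks the centromere, averaged 43.5 ± 2.32 CPM in fast cells and 43.3 ± 1.95 CPM in parental cells (SD, n = 6 libraries each, edgeR adjusted p = 0.884). CENPE, the kinesin of the corona, had 147 to 189 CPM in fast and 144 to 164 CPM in parental libraries and did not pass (0.08 ± 0.04 SE, edgeR adjusted p = 0.0903). It passed once fast batch 1 replicate 1 (edgeR adjusted p = 0.0292) or else parental batch 1 replicate 1 (0.000526) was left out. With no low-count filter it passed at 0.0252. Over the alternatives the edgeR and other adjusted p-values were 0.000187 to 0.369. The lowest is from centring on chromosomal neighbours, where the log2 fold change was 0.28. CENPF, a farnesylated corona protein, was higher by 0.09 ± 0.03 SE (edgeR adjusted p = 0.00974) with overlapping libraries. The call ended without fast batch 2 replicate 1 (0.0827) or 2 (0.0503), without parental batch 2 replicate 3 (0.0502), under a 1 CPM filter on the mean (0.084), without a batch term (0.0719) and on the sums (0.0991), in a range of 0.000628 to 0.0991 over the alternatives.

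Of the chromosomal passenger complex, which corrects faulty attachments and guides cytokinesis, the scaffold and borealin fell, while the kinase and survivin did not pass the test. CDCA8, or borealin, had 88.8 to 103 CPM in fast libraries (median 96.4) and 130 to 151 CPM in parental libraries (median 142), lower without overlap (-0.55 ± 0.03 SE, edgeR adjusted p = 9.04e-19). INCENP, the scaffold, had 81.9 to 93.8 CPM in fast and 96.5 to 112 CPM in parental libraries, also without overlap (-0.27 ± 0.03 SE). AURKB, the kinase, averaged 131 ± 7.82 and 132 ± 6.99 CPM and BIRC5, survivin, 140 ± 5.52 and 140 ± 5.9 CPM in fast and parental cells (SD, n = 6 libraries each, edgeR adjusted p = 0.787 and 0.935). The ratio of CDCA8 to AURKB was 0.690 to 0.766 in fast and 0.995 to 1.13 in parental libraries, while that of BIRC5 to AURKB overlapped, with medians of 1.05 in fast and 1.07 in parental libraries.

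Of 8 mitotic kinesins, 3 were higher, 4 lower and 1 not called, while 31.9% of all genes tested were higher and 31.5% lower. KIF20A (MKLP2), which carries the passenger complex to the midzone, had 171 to 202 CPM in fast libraries (median 186) and 290 to 318 CPM in parental libraries (median 304). Its fast libraries all lay below (-0.71 ± 0.02 SE, edgeR adjusted p = 5.23e-23). Its relative KIF20B (MPP1), needed late in cytokinesis, went the other way, with 185 to 237 CPM in fast libraries (median 204) and 133 to 152 CPM in parental libraries (median 144; 0.52 ± 0.03 SE). The ratio of KIF20B to KIF20A was 1.03 to 1.17 in fast and 0.455 to 0.489 in parental libraries. KIF4A, a chromokinesin of the midzone, had 77.3 to 83.3 CPM in fast and 130 to 139 CPM in parental libraries (-0.73 ± 0.03 SE). KIF2C (MCAK), a microtubule depolymerase at centromeres, fell by 0.52 ± 0.02 SE, at 162 ± 3.33 CPM in fast cells and 232 ± 4.95 CPM in parental cells (SD, n = 6 libraries each). KIF18A, which damps chromosome oscillations, fell by 0.37 ± 0.03 SE to 42.2 ± 1.57 CPM in fast cells, against 54.4 ± 1.94 CPM in parental cells. KIF11 (Eg5), the motor that separates the spindle poles, was higher, with 249 to 284 CPM in fast and 195 to 233 CPM in parental libraries (0.35 ± 0.03 SE, edgeR adjusted p = 1.14e-12). KIF14, of the midbody, was also higher, with 119 to 141 CPM in fast and 95.2 to 116 CPM in parental libraries (0.35 ± 0.04 SE). The populations did not overlap for any of these 7 kinesins. Over all genes tested, 38.4% had no overlap. KIF23 (MKLP1), of centralspindlin, averaged 155 ± 3.11 CPM in fast cells and 156 ± 8.65 CPM in parental cells (SD, n = 6 libraries each, edgeR adjusted p = 0.84).

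Of 5 spindle genes 3 were higher and 2 did not pass, while 31.9% of all genes tested were higher and 31.5% lower. NUSAP1, a microtubule bundler at chromosomes, had 229 to 246 CPM in fast libraries (median 234) and 189 to 201 CPM in parental libraries (median 191), without overlap (0.29 ± 0.03 SE, edgeR adjusted p = 3.36e-12). ASPM, a spindle pole protein, had 213 to 232 CPM in fast and 166 to 215 CPM in parental libraries, which overlapped (0.23 ± 0.05 SE, edgeR adjusted p = 0.00212). PRC1, which crosslinks midzone microtubules, was higher by 0.07 ± 0.02 SE (edgeR adjusted p = 0.0159), at 211 ± 6.3 CPM in fast cells and 201 ± 6.27 CPM in parental cells (SD, n = 6 libraries each). The PRC1 call ended with no low-count filter (edgeR adjusted p = 0.051), under a 1 CPM filter on the mean (0.0827) and without a batch term (0.0694). It also ended on the sums (0.185, the highest of a range that starts at 2.55e-18). That lowest value is from centring on chromosomal neighbours, where the log2 fold change was 0.50. TPX2, the activator of AURKA, averaged 529 ± 37.6 and 517 ± 28.1 CPM and DLGAP5 (HURP), a stabiliser of kinetochore fibres, 165 ± 5.65 and 170 ± 5.68 CPM in fast and parental cells, and neither passed (edgeR adjusted p = 0.253 and 0.152). Without parental batch 1 replicate 1, TPX2 passed as higher at an edgeR adjusted p of 0.0447 (range over the alternatives 0.00431 to 0.753). The lowest value is from centring on chromosomal neighbours, where TPX2 was lower (-0.08). DLGAP5 passed under a 1 CPM filter on the mean, at 0.0276 (range 0.00248 to 0.64, the lowest also from that centring).

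Cytokinesis and chromosome genes completed the set. ANLN, anillin, the scaffold of the contractile ring, had 607 to 689 CPM in fast libraries (median 663) and 458 to 578 CPM in parental libraries (median 510), higher without overlap (0.36 ± 0.03 SE, edgeR adjusted p = 7.42e-14). ECT2, the exchange factor that activates RhoA at the division plane, was lower, with 179 to 205 CPM in fast and 228 to 269 CPM in parental libraries (-0.32 ± 0.03 SE, edgeR adjusted p = 9e-13), without overlap. MKI67, the Ki-67 protein that coats mitotic chromosomes, had 1157 to 1301 CPM in fast libraries (median 1190) and 824 to 919 CPM in parental libraries (median 862). All fast libraries lay above (0.47 ± 0.03 SE, edgeR adjusted p = 2.63e-15). TOP2A, the topoisomerase that untangles sister chromatids, was higher by 0.11 ± 0.03 SE, at 804 ± 23.5 CPM in fast cells and 748 ± 53.1 CPM in parental cells (SD, n = 6 libraries each, edgeR adjusted p = 0.00153), with overlap, and its call was lost on the sums (0.0574, range over the alternatives 4.78e-05 to 0.0574).

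**Figure D3:**
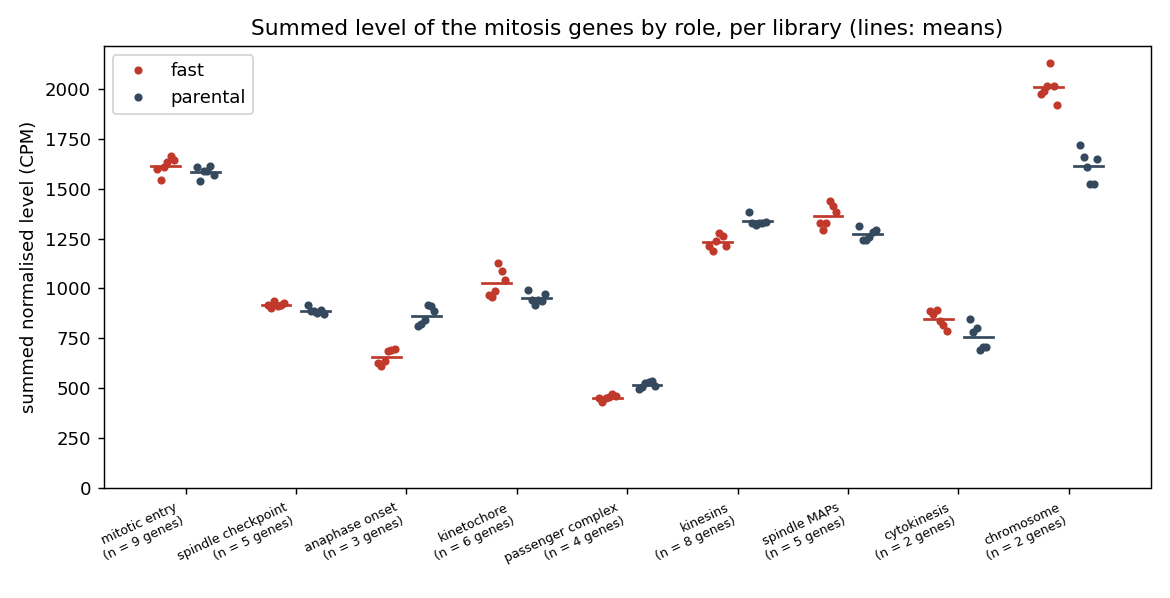
Summed normalised level in CPM of the mitosis genes of each role in every library, fast left and parental right, with lines at the means. The 3 anaphase onset genes, the passenger complex and the kinesins sum lower in all fast libraries, and the 2 chromosome genes (MKI67 and TOP2A) sum higher, at 1920 to 2129 CPM against 1524 to 1720 CPM in parental libraries.

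Levels were also set per kilobase of annotated exon, to compare genes. UBE2C stood highest in fast cells, at 189 CPM per kilobase, against 177 in parental cells. CDC20 was highest in parental cells and stood at 132 in fast and 214 in parental cells. TPX2 stood at 147 and 144, TOP2A at 125 and 116 and CCNB1 at 117 and 95.1 CPM per kilobase in fast and parental cells. PTTG1 lay below CCNB1 in fast cells, at 72.7 CPM per kilobase, and above it in parental cells, at 99.7. CDC25C was lowest in both populations, at 6.23 in fast and 10.6 in parental cells, next to KIF18A at 9.05 and 11.7 CPM per kilobase. Exon lengths come from an annotation of another build than the counts, so that these levels are approximate.

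The change was then read within each batch. In batch 2, 19 members were higher and 15 lower in fast cells, against 27.4% and 28.6% of all genes (56.0% in either direction). In batch 1, 14 were higher and 16 lower, against 29.0% and 27.1% (56.1% in either direction). Called in both batches were 14 members as higher and 15 as lower, against 23.0% and 23.0% of all genes, and 0 members were called in both with opposite signs, against 0.388%. Among the 14, SPC25, BUB1B and ASPM passed narrowly in batch 1 (edgeR adjusted p of 0.0429, 0.0420 and 0.0390). Their batch 1 calls were lost in 13, 12 and 9 of 18 alternatives. The log2 fold change had the same sign in both batches for 36 of 44 members, called or not. Its Pearson correlation between the batches was 0.98 across the members and 0.96 over the 15569 genes at a mean of at least 1 CPM. In batch 2 alone 5 members were called, and in batch 1 alone DLGAP5, at -0.10 (edgeR adjusted p = 0.0142 in that batch, lost in 3 of 18 alternatives). For these counts and that of equal signs no share over all genes was taken. The effect itself differed between batches for 4 members, all with the larger value in batch 2, at an edgeR adjusted p under 0.05 for the difference. Of all genes, 5.40% had such a difference, 1.75% upward and 3.65% downward. With another scaling, RLE, the numbers of genes over the whole table were 575 upward and 522 downward in place of 396 and 827, and the members called were 8 upward and 0 downward in place of 4 and 0.

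The 4 genes are CENPE, NDC80, KIF20B and ASPM. In batch 2 NDC80 had 211, 201 and 196 CPM in fast and 115, 123 and 119 CPM in parental libraries. In batch 1 it had 174, 171 and 176 CPM in fast and 127, 115 and 116 CPM in parental libraries. The rise was 0.77 in batch 2 and 0.55 in batch 1 (difference 0.22, edgeR adjusted p = 0.00521), and the fast libraries of batch 2 stood apart. CENPE had 189, 174 and 175 CPM in fast and 154, 154 and 164 CPM in parental libraries of batch 2, against 147, 150 and 149 CPM and 164, 144 and 146 CPM in batch 1. It was higher in fast cells of batch 2 (0.18, edgeR adjusted p = 8.53e-05) and not called in batch 1 (-0.03, 0.6), with a difference of 0.21 (0.0156). That difference was lost without parental batch 1 replicate 1 (0.063, range over the alternatives 6.76e-06 to 0.063).

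ASPM moved through its parental libraries, at 166, 167 and 190 CPM in batch 2 and 215, 211 and 199 CPM in batch 1, while its fast libraries had 232, 228 and 213 CPM in batch 2 and 229, 219 and 222 CPM in batch 1 (difference 0.26, edgeR adjusted p = 0.00545). KIF20B had a difference of 0.165 (0.0266). Its call was lost with each of the 3 fast libraries of batch 1 left out (edgeR adjusted p of 0.0517 for the lowest). It was also lost without parental batch 1 replicate 2 (0.0669), parental batch 2 replicate 1 (0.0669) or parental batch 2 replicate 2 (0.0646), and with a replicate block. These were 7 losses among 18 alternatives, in a range of 0.000376 to 0.0669. Across the 44 genes Pearson's r of the difference between batches with log2 exon length was 0.15 and Spearman's rho 0.02. Over the 15569 genes at a mean of at least 1 CPM these were 0.05 and 0.07, all as descriptions of genes that share libraries.

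The change of a mitosis gene was close to that of the genes beside it on its chromosome. For each member the median log2 fold change was taken of 15 tested genes on either side with a mean of at least 1 CPM (26 neighbours for NDC80, which lies near the end of chromosome 18, and 30 for the others). Across the 44 members the Pearson correlation between a gene's own change and its neighbours' median was 0.90, and the Spearman correlation 0.88. Over the 15569 genes it was 0.38 and 0.56, with many larger changes among them. The members share their libraries, and some share neighbours, so this is a description across genes. When the member's change was taken from batch 2 and the neighbours' from batch 1, or the reverse, the Pearson correlation was 0.90 each time. Of the 33 called members, 32 had the sign of their neighbours, against 78.8% of the called genes at 1 CPM or more, and 41 of 44 lay within 0.25 of their neighbours on the log2 scale, against 59.4% of all genes at 1 CPM or more. The SD of the members' log2 fold changes was 0.38 before and 0.16 after their neighbours' medians were taken off. Over all genes at 1 CPM or more it was 0.83 before and 0.77 after.

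**Figure D4:**
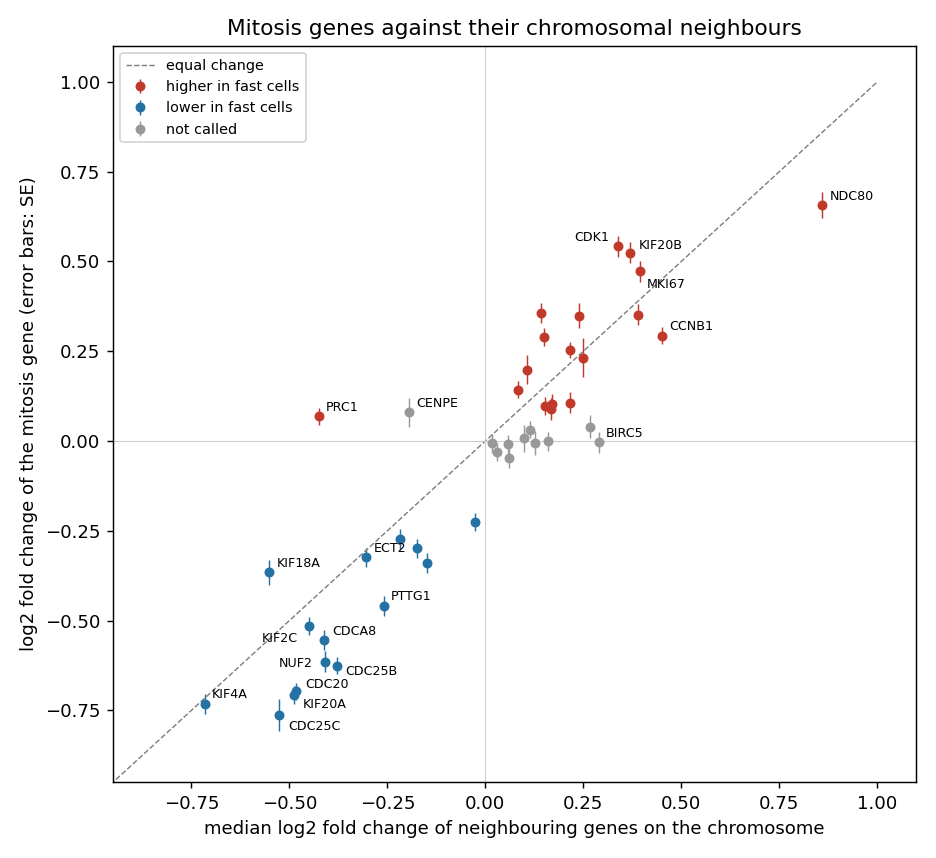
Log2 fold change of each mitosis gene, fast over parental with SE bars, against the median log2 fold change of its neighbours on the chromosome. The points follow the dashed line of equal change (Pearson correlation 0.90 across 44 genes), and PRC1 at -0.43 on the neighbour axis stands farthest from it.

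The order along the chromosomes shows the same for most members. Farthest from their neighbours were PRC1 on chromosome 15 (0.07 beside -0.43), BIRC5 on chromosome 17 (-0.003 beside 0.29) and CENPE on chromosome 4 (0.08 beside -0.20). All 5 members on chromosome 10, CDK1, KIF20B, KIF11, BUB3 and MKI67, were higher in fast cells by 0.25 to 0.54, beside neighbours at 0.22 to 0.39. On chromosome 1 the 4 members met first in gene order, CDCA8, CDC20, KIF2C and NUF2, were lower by -0.52 to -0.70 beside neighbours at -0.41 to -0.48. The last 3, ASPM, KIF14 and CENPF, were higher beside neighbours at 0.17 to 0.25. On chromosome 5 CCNB1, met first, was higher (0.29) beside neighbours at 0.45. KIF20A, CDC25C and PTTG1 farther along were lower (-0.71, -0.76 and -0.46) beside neighbours at -0.49, -0.53 and -0.26. The change was 0.66 beside 0.86 for NDC80 on chromosome 18, -0.73 beside -0.72 for the X-linked KIF4A, and -0.63 beside -0.38 for CDC25B on chromosome 20, while TPX2, UBE2C and AURKA on the same chromosome had -0.03 to 0.10 beside 0.03 to 0.15.

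Centred on their neighbours by an offset in the edgeR model, 10 members were higher and 22 lower, against 27.8% and 28.9% (56.7% in either direction) of the 21503 genes with a neighbour value. The neighbours' median entered as a fixed value. Adjusted p-values after centring, here and above, therefore leave out the uncertainty of that median, and calls near the threshold may rest on it. The direction turned for CCNB1 (-0.15, edgeR adjusted p = 3.13e-06), NDC80 (-0.20, 0.00124), TOP2A (-0.11, 0.00756), BUB1B (-0.07, 0.0453) and KIF18A (0.19, 2.08e-05). For KIF11, ASPM, CENPF, UBE2C and CENPA the sign turned without a call. For KIF4A (-0.01, edgeR adjusted p = 0.712), ECT2 (-0.02, 0.595), BUB3 (0.04, 0.14), INCENP (-0.05, 0.11) and SPC25 (0.10, 0.0505) the call was lost. The call was made after centring for TTK (-0.22), TPX2 (-0.08), BIRC5 (-0.29), PLK1 (-0.16), CCNB2 (-0.13), DLGAP5 (-0.10), AURKB (-0.07) and CENPE (0.28). PRC1 stood farthest from its surroundings, at 0.07 beside neighbours at -0.43. Among the other members, CDK1 (0.21), ANLN (0.22), KIF20B (0.16) and NUSAP1 (0.14) remained higher after centring, and CDC25B (-0.24), CDC25C (-0.23), KIF20A (-0.22), CDC20 (-0.21), NUF2 (-0.20), BUB1 (-0.20), PTTG1 (-0.20) and MAD2L1 (-0.19) remained lower, each called in edgeR's test.

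Other genes of the cell cycle were counted in the same fit, where 31.9% of all genes tested were higher and 31.5% lower, with a median log2 fold change of 0.005. The counts of each list are set beside these shares as a description, with no test. Of 59 further mitotic genes, 22 were higher, 19 lower and 18 not called, with a median log2 fold change of 0.02. MAD1L1, the kinetochore anchor of MAD2, rose most (118 ± 2.48 CPM in fast cells and 69.3 ± 2.26 CPM in parental cells, SD, n = 6 libraries each, 0.77 ± 0.03 SE), followed by the centromere protein CENPK (0.65) and CEP55 of the midbody (0.60). CENPI, a centromere protein encoded on the X, fell most (25.2 ± 1.2 CPM in fast cells and 49.0 ± 6.13 CPM in parental cells, -0.95 ± 0.05 SE), followed by SKA1, a microtubule coupler of the kinetochore (-0.87), and CKS1B, a CDK-binding subunit (-0.50). These 6 genes had neighbours at 0.39, 0.42, 0.35, -0.54, -0.72 and -0.33 in the order named.

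Of 19 condensin and cohesin genes 7 were higher, 7 lower and 5 not called, with a median of -0.02. The cohesin subunit SMC3 (0.45), its release factor WAPL (0.44) and the condensin subunit SMC2 (0.38) led the rises, and CDCA5, or sororin, which protects cohesin (-0.46), and the X-encoded cohesin subunits STAG2 (-0.42) and SMC1A (-0.39) the falls. Of 17 anaphase-promoting complex genes 9 were higher, 3 lower and 5 not called, with a median of 0.09. ANAPC13, ANAPC2 and ANAPC16 rose by 0.64, 0.52 and 0.47, and ANAPC15, CDC23 and ANAPC10 had -0.98, -0.82 and -0.37. Of 23 genes of cell-cycle transcription 10 were higher, 7 lower and 6 not called, with a median of 0.05. The E2F factors E2F4 (0.51) and E2F2 (0.47) and MYBL1 of the MYB family (0.41) led the rises, and the NF-Y subunits NFYC (-0.48) and NFYA (-0.45) and LIN52 of the MuvB core (-0.43) the falls.

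Of 40 S-phase genes 24 were higher, 12 lower and 4 not called, against the same 31.9% and 31.5% of all genes, with a median of 0.09. TYMS, of thymidylate synthesis (0.93), ORC6, of the origin complex (0.70), and GINS2, of the replicative helicase (0.62), rose most, and RPA2, which binds single-stranded DNA (-1.13), POLA1, of the primase complex (-0.68), and the helicase BLM (-0.47) fell most. Of 15 G1 cyclins, kinases and inhibitors 13 could be tested, with 4 higher, 7 lower and 2 not called and a median of -0.13. CDKN1A, the inhibitor p21, averaged 80.8 ± 14.3 CPM in fast cells and 48.3 ± 1.56 CPM in parental cells (SD, n = 6 libraries each, 0.72 ± 0.09 SE, edgeR adjusted p = 4.07e-05). Its neighbours were at -0.24. CDKN1C (0.45) and CDK4 (0.22) were also higher, and CDKN2C (-0.63), CDC25A (-0.35) and CCND3 (-0.27) lower.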

How the data were processed

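RNA was sequenced from fast and parental MDA-MB-231 cells in 12 libraries, 3 per population and batch. The values deposited by the authors are whole-number read counts for each gene, without normalization. The submitters' processing notes name Trimmomatic 0.32, STAR 2.3.0e and featureCounts 1.4.4 and the builds hg19 and GRCh37. The strand setting of the counting and the handling of multiply mapping reads are not stated, so that reads shared with antisense genes or gene copies may be misplaced. All 12 count columns were matched by their labels. Totals were 53267145 to 75944907 counts. No pair of libraries of a group agreed within counting noise (index of dispersion 3.41 to 8.81).

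edgeR 4.0.16 (R 4.3.3) was run on the whole table with TMM scaling, its default filter (minimum count 10, minimum total 15, by group) and a robust quasi-likelihood fit, tested on simulated counts. The overall effect had batch as a term, and a model with 1 mean per group gave the effect within batches and its difference, batch 2 minus batch 1. Adjusted p-values are Benjamini-Hochberg values over all 22668 genes, with 0.05 as the threshold, and SE is the log2 fold change over the root of the F statistic. Alternatives used DESeq2 1.42.0, limma 3.58.1 (voom), RLE, other filters, a replicate block, no batch term, sums of libraries, centring on neighbours and leaving out each library. Gene order and exon length came from GENCODE 29 by gene ID (52339 of 60234 matched), on another build (GRCh38), so no coordinates of it are given; promoter windows are RefSeq's. The members and gene lists were chosen with earlier results of these data known. All members could be named, as could from each list up to 3 called genes with the largest rise and 3 with the largest fall at a mean of 1 CPM or more; the ratios between members were chosen after their values were seen.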

Additional observations from a re-analysis of the deposited data

Results flagged for a closer look

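The effect of population differed between the batches, by a test of that difference, for 4 mitosis genes. The log2 effect in batch 2 minus that in batch 1 was 0.211 for CENPE, 0.220 for NDC80, 0.165 for KIF20B and 0.261 for ASPM (edgeR adjusted p of 0.0156, 0.00521, 0.0266 and 0.00545). Over 18 alternatives for each gene, the call was lost in 7 for KIF20B, in 1 for CENPE and in 0 for NDC80 and ASPM. For CENPE the fast libraries averaged 179 CPM in batch 2 and 149 CPM in batch 1. What differed between the handling of the batches was not tested.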

How the results depend on the processing

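The numbers of members called for fast against parental, 18 higher and 15 lower, were 17 to 20 and 15 to 15 with each library left out. Centring on chromosomal neighbours gave 10 higher and a median log2 fold change of -0.065. With each library left out, the median was -0.006 to 0.039. Within batch 2 the numbers were 18 to 22 higher and 15 to 15 lower, and within batch 1 11 to 15 higher and 15 to 19 lower, with each library left out. For the difference between batches, the 4 members called upward were 8 with RLE scaling, 13 with no low-count filter, 9 under a 1 CPM filter on the mean, 9 with DESeq2 and 3 to 13 with each library left out (8, 9 and 13 without fast batch 2 replicates 1, 2 and 3 and 12 without parental batch 2 replicate 3), and 0 were called downward in each of these settings (edgeR, DESeq2 and limma-voom). Over all genes tested, the numbers upward and downward also moved, from 396 and 827 of 22668 in the main fit. With RLE they were 575 and 522 of 22668, and with no low-count filter 966 and 411 of 38535. Under the 1 CPM filter they were 739 and 576 of 16190, and with DESeq2 777 and 688 of 22668. Without fast batch 2 replicates 1, 2 and 3 they were 629 and 354, 632 and 337, and 803 and 356. Without parental batch 2 replicate 3 they were 819 and 438. The cause was not tested. Under centring the direction of 11 members turned with a call before or after it: CCNB1 (-0.154), BUB1B (-0.065), TTK (-0.223), UBE2C (-0.052), CENPF (-0.076), NDC80 (-0.200), KIF11 (-0.034), KIF18A (0.189), TPX2 (-0.080), ASPM (-0.014) and TOP2A (-0.106). CENPA turned as well (-0.089) and was called in neither fit. With 5 or 30 neighbours on each side, a choice made after seeing the data, the correlation with the neighbours was 0.89 and 0.88.

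Replicate numbers did not pair the libraries: same-numbered libraries had deviations correlated at -0.12 to 0.10. With a replicate block, 18 members were higher and 15 lower, and 3 were called for the difference. The call lost was KIF20B, difference between batches, at an edgeR adjusted p of 0.0587. Of 3300 alternative values of single members, 3130 kept their call; 64 were no longer and 95 newly past the threshold. Among values called in neither setting, 176 changed sign, the largest at 0.0885. On sums, 1 residual degree of freedom is left among 4 samples. Libraries described as technical replicates limit all of this to these cultures.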
